A study of Drosophila melanogaster with 2 samples.

Results

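In Kc167 cells, 198 annotated genes outside the named noncoding RNA genes had more read pairs counted on the opposite strand than on their own. They include rempA and Oseg1 of the ciliary transport machinery, 4 chemoreceptor genes, 4 cytochrome P450 genes, the eye pigment transporter gene bw and the meiosis gene vilya. Read pairs shared with an overlapping gene on the opposite strand are part of these counts. Kc167 is a Drosophila melanogaster cell line of embryonic origin. Poly(A)-selected RNA was sequenced from 2 libraries, replicates 1 and 2 of control cells that were grown at 25 °C and, by the labels, kept in 2% DMSO for 1 h. There is 1 condition, so nothing is compared between treatments, and the sources used here do not say whether the replicates came from separate cultures.

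The genes were selected on the measured counts. The deposited count files give 3 numbers per gene and library: the read pairs on either strand (the unstranded count), those on the strand opposite to the gene (the antisense count) and those on the gene's own strand (the sense count). A gene was taken when its unstranded count was at least 100 in both libraries and its antisense counts, summed over the libraries, exceeded its sense counts. Symbols that start with lncRNA: or asRNA: were left out, which removed 11 genes. The rule took 198 of the 7192 genes with the minimum, or 2.75%, out of 17808 genes in the files. Since the rule used these counts, the antisense shares below are a description and were not tested. All 198 were found in the Ensembl annotation of the same assembly, BDGP6 (dm6): 197 are protein-coding and 1, CR43281, is a pseudogene. Only 94 carry a gene name, and the other 104 have a CG or CR number.

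Antisense transcription is common in compact genomes. Neighbouring genes on opposite strands often run into each other at their 3′ ends, many small genes lie inside the introns of larger ones, and promoters can fire in both directions. A strand-specific library keeps the strand of each RNA, so that reads from the gene across the way can be told from the gene's own. An unstranded count cannot do this, and a gene that is silent can then look active. The counting program sets aside a read pair that falls in several genes. In the unstranded count, genes on both strands compete for it, while each stranded count considers 1 strand only. A read pair from an overlap of opposite-strand genes is therefore left out of the unstranded count, but enters the sense count of its own gene and the antisense count of the other. No base sequences or protein sequences were used here.

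Replicate 1 held 42634176 read pairs and replicate 2 held 40173312. In them 1278464 and 1181853 were counted antisense to a gene, or 3.68% and 3.59% of all stranded counts, against 33436865 and 31721648 counted sense. The 198 genes held 127270 of the antisense read pairs of replicate 1 and 118143 of those of replicate 2, which is 9.95% and 9.996% of all antisense counts, beside 52129 and 49479 sense read pairs. The cell line was checked against markers of blood cells, which it is known to resemble. All 7 (srp, Hml, Pxn, NimC1, He, Col4a1 and vkg) had at least 100 sense counts in both libraries, with a summed level of 2285 CPM in replicate 1 (CPM, the count scaled to 1000000 sense gene counts of the library) and 2318 in replicate 2. Of 13 abundant testis transcripts, 6 were at 0 in both libraries and the list summed to 4.52 and 4.004 CPM. Markers of fat body, follicle cells, photoreceptors and the male accessory gland each summed to between 0.189 and 1.48 CPM. The 5 neuron markers summed to 57.0 and 58.6 CPM, and 5 muscle markers to 25.9 and 26.3. Most of these sums came from Cadps (1570 and 1525 sense counts) and elav (275 and 278) for neurons and from Mlc2 (822 and 779) for muscle. The other neuron markers had at most 42 sense counts in a library, and the other muscle markers at most 25. No marker gene was among the 198.

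The antisense share of a gene is the antisense part of its 2 stranded counts, over both libraries. Its median was 77.6% in the 198 genes, with quartiles of 60.4% and 94.5%, against a median of 1.32% in the other 6994 genes with the minimum, whose quartiles were 0.880% and 2.65%. Shares ran over the whole range that the rule allows: 71 genes were above 90%, 17 of them above 99%, and 47 were below 60%. At the upper end the sense strand was nearly empty. In 41 of the 198 genes each library held at most 10 sense read pairs, against 4 of the other 6994. With at least 100 unstranded counts, a gene with so few sense read pairs must have more antisense ones. This contrast was therefore fixed by the rule and the symbols it left out. The summed antisense count had a median of 570.5 read pairs and ran between 148 and 23472, and the median antisense level was 8.76 CPM.

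**Figure D1:**
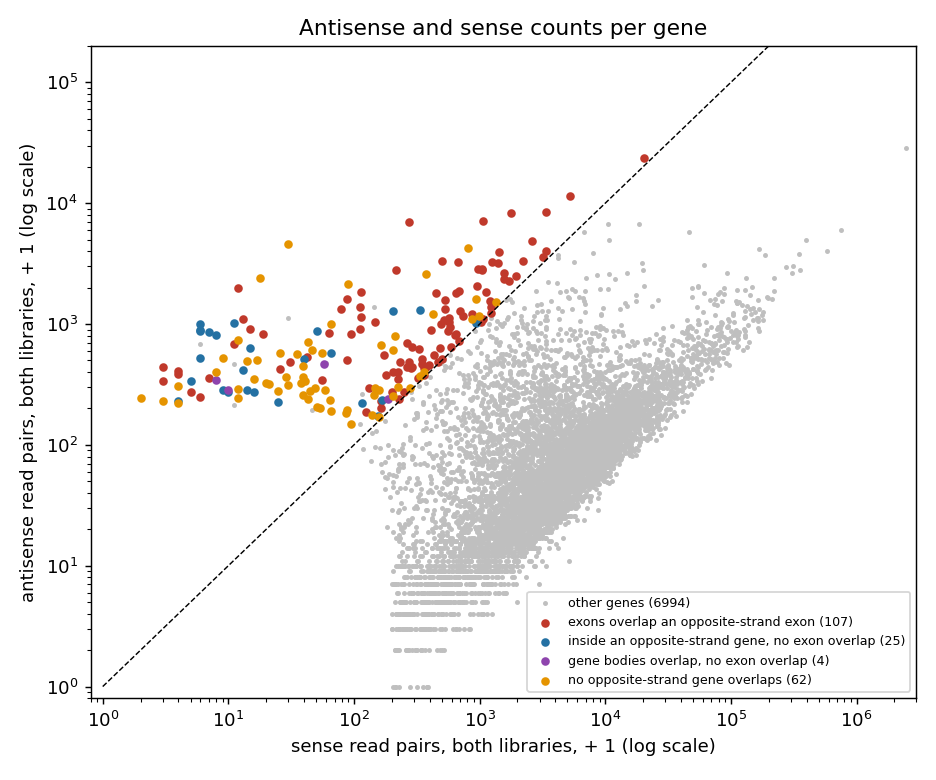
Antisense read pairs (vertical) against sense read pairs (horizontal) per gene, summed over both libraries with 1 added, on log axes; each point is a gene and the dashed line marks equal counts. The 198 coloured genes lie above the line by the rule, with red for the 107 whose exons overlap an opposite-strand exon, blue for the 25 inside an opposite-strand gene, purple for 4 with an overlap of gene bodies only and orange for the 62 without any overlap; grey points are the other genes with the minimum, and those above the line are the noncoding genes left out.

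At the lower end the choice of a gene rests on few read pairs. The 4 genes just inside the rule were pippin (1229 antisense against 1224 sense read pairs, 50.1%), CG34125 (1034 against 1019), Pex10 (1099 against 1068) and CG43191 (516 against 500). Just outside it were CG34008 (477 against 489, 49.4%), Sol1 (275 against 282), Aldh7A1 (1569 against 1612) and CG30491 (558 against 576). For 18 of the 198 genes the exact 95% binomial interval of the share, which covers counting error only, reached 50% or less. In 9 the antisense count was larger in a single library and not in the other: pippin, CG34125, CG33521, CG43191, CG13924, CG4872, CG5157, sn and Ugt37C2.

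The rule was also applied to each library by itself. Applied to replicate 1 alone, the rule took 197 genes, of which 189 also had more antisense than sense read pairs in replicate 2, where their median share was 78.1%. Applied to replicate 2 alone, it took 195 genes, of which 189 did so in replicate 1, with a median share of 79.7%. The share itself differed between the libraries by a median of 1.48 percentage points over the 198 genes, and at most by 9.24, in Ugt37C2. Fisher's exact test of antisense and sense counts by library, two-sided and with Benjamini-Hochberg adjustment over all 7192 genes, called 0 of the 198 at an adjusted p of 0.05, against 0.0834% of all genes (6 genes). A chi-square test scaled for overdispersion also called 0 of them. Without adjustment, 16 of the 198 (8.08%) and 514 of the other genes (7.35%) were under 0.05 in the exact test. The smallest p belonged to vari, with 2216 and 1751 antisense read pairs and 734 and 703 sense read pairs (exact p = 0.00198, adjusted 0.266). These tests compare 2 libraries of the same condition on the counts that the rule used, and they treat read pairs as independent, so that they cover counting error only and do not show that the shares were equal.

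The rule did not use the position of the genes. Exons of 107 of them (54.0%) overlapped an annotated exon on the opposite strand, against 36.9% of all genes with the minimum. A further 25 (12.6%) lay wholly inside a gene on the opposite strand without touching its exons, against 2.43% of the other genes. With the genes that also overlap exons, 32 of the 198 lay inside an opposite-strand gene, against 3.45% of all genes with the minimum. In 4 genes only the bodies overlapped. The remaining 62 (31.3%) had no annotated gene across from them, transposable elements aside, against 56.2% of the other genes. These shares describe a list that was chosen by its counts, and no test of them was made.

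**Figure D2:**
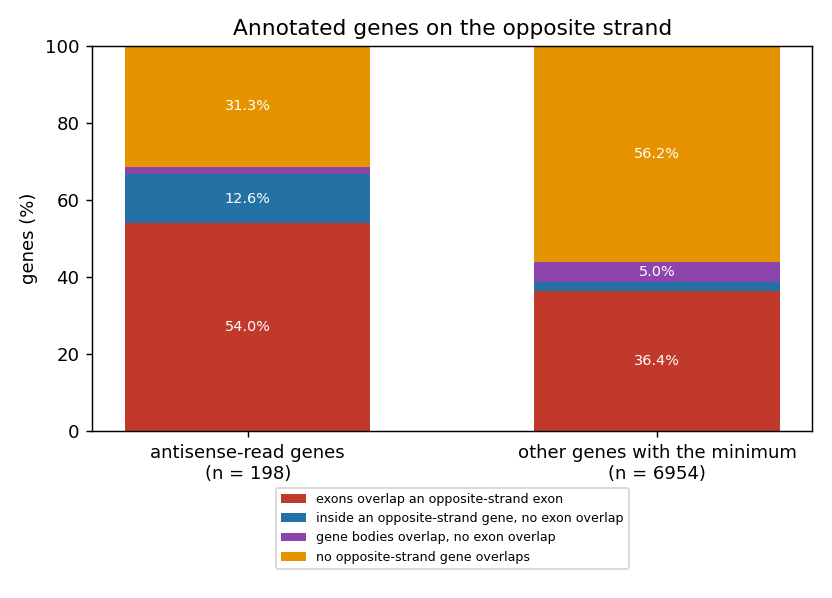
Share of genes (vertical axis, percent) by what the annotation places on the opposite strand, for the 198 antisense-read genes (left bar) and the other 6954 annotated genes with the minimum (right bar). Exon overlap made up 54.0% on the left and 36.4% on the right, a place inside an opposite-strand gene 12.6% and 2.43%, and no overlap 31.3% and 56.2%.

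The genes with overlapping exons had the most antisense reads, a median of 900 read pairs over both libraries beside 376 sense read pairs, and the lowest shares, a median of 67.3%. The overlap was at the 3′ end of the antisense-read gene in 77, at its 5′ end in 20, in its middle in 4, and in 6 the antisense-read gene lay within the span of the overlapping gene, whatever the length of the exons shared. In 101 of the 107 the gene across from it had at least 100 sense counts in both libraries. That gene had sense counts in both libraries for 102 genes, and only these were compared. Its sense count was larger than the antisense count in both libraries in 98. The antisense count came to a median of 0.232 times the sense count of the overlapping gene in replicate 1 and 0.212 times in replicate 2. Both stranded counts together exceeded the unstranded count by more than 1.1 times in 103 of these 107 genes, against 8 of the 91 others. In all, 87 of the 198 kept both strand counts within 1.1 times the unstranded count.

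Several of the largest antisense counts came with an abundant gene across the way. The gene rempA (2L, 553742 to 560310, minus strand) encodes IFT140, a subunit of the retrograde transport complex of cilia. It had 12051 and 11421 antisense read pairs and 10517 and 9933 sense read pairs, and it overlaps 640 exonic bases of Tspo, which encodes a translocator protein of the mitochondrial outer membrane. Tspo itself had 12083 and 11627 sense read pairs, close to the antisense count of rempA in each library. The unstranded count of rempA, without the read pairs that fall in both genes, was 10604 and 9929, close to its sense count. The deposited level of rempA, which rests on its sense counts, was 92.3 ± 0.478 TPM (SD, n = 2), the highest deposited level of the 198. TPM is the count divided by the deposited gene length and scaled to a common total.

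In CG32576 and CG2006 a whole small gene lies within the exons. CG32576 (X, 16285953 to 16288533, minus strand) covers all 523 exonic bases of UQCR-14, named for a subunit of respiratory complex III. It had 4197 and 4055 antisense read pairs, beside 944 and 819 sense read pairs of its own, while UQCR-14 had 4182 and 4046 sense read pairs. CG2006 (3R, 29489468 to 29491383, plus strand) covers all 493 exonic bases of Spase12, a signal peptidase subunit gene. Its antisense counts were 1750 and 1591 beside 244 and 259 sense read pairs, and Spase12 had 1734 and 1561 sense read pairs. In both pairs the antisense count of the outer gene and the sense count of the inner gene thus differed by under 2% in each library.

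The largest excess of stranded over unstranded counts was in CG10431 (2L, 18974710 to 18978187, plus strand), which shares 669 exonic bases with Swip-1 at its 3′ end. CG10431 had 3732 and 3282 antisense and 152 and 122 sense read pairs, but only 115 and 102 read pairs in the unstranded count, so that the stranded counts together were 33.6 times the unstranded. The other large excesses were 18.4 times in CG34231, opposite rho-7, 10.2 times in pippin, 9.56 times in CG2006 and 8.07 times in IP3K1. IP3K1, an inositol trisphosphate kinase gene, had 4378 and 4049 antisense and 1752 and 1639 sense read pairs, and shares 1019 exonic bases with hpRNA:CR18854, a hairpin RNA known as a source of endogenous small interfering RNAs, which had 10528 and 9688 sense read pairs.

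Other genes with large antisense counts had a strongly read gene at an end. Traf-like had 6073 and 5437 antisense and 2739 and 2465 sense read pairs and overlaps AnxB11, an annexin gene, at its 3′ end. The gene clos, whose product belongs to the eggshell, had 3656 and 3511 antisense and 546 and 513 sense read pairs, and only 37 of its exonic bases overlap the ribosomal protein gene RpL31, which had 28023 and 26133 sense read pairs. At sni, a carbonyl reductase gene, 2428 and 2430 antisense and 1322 and 1310 sense read pairs were counted, with Trxr1 (thioredoxin reductase) at its 5′ end. The gene lawc had 1244 and 1234 antisense and 985 and 948 sense read pairs over the whole gene, and shares 506 exonic bases with Trf2, which encodes a TBP-related factor and had 23226 and 22466 sense read pairs. In each of these the overlapping gene had more sense read pairs than the antisense-read gene had antisense read pairs.

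**Figure D3:**
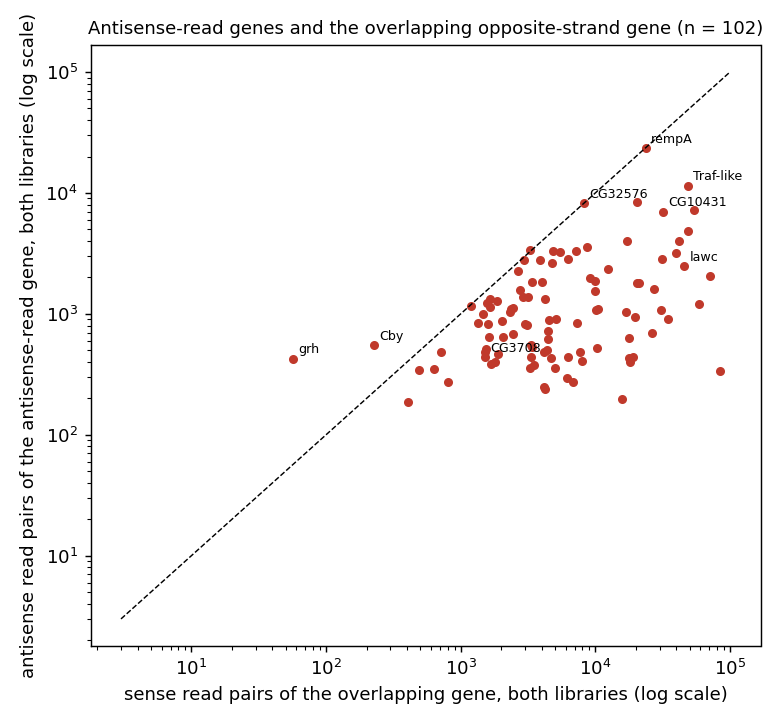
Antisense read pairs of 102 antisense-read genes (vertical) against the sense read pairs of the opposite-strand gene that overlaps their exons (horizontal), both summed over the libraries, on log axes; each point is a pair of genes and the dashed line marks equal counts. In 98 pairs the overlapping gene's count is the larger in both libraries; rempA and CG32576 lie on or near the line, and Cby and grh lie above it.

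The antisense count exceeded the sense count of the overlapping gene in both libraries in 4 of the 102: CG32576 and CG2006, where the margin was under 2%, and Cby and grh. Cby (3R, 21868003 to 21868770), a gene of the ciliary transition zone, had 293 and 259 antisense and 92 and 79 sense read pairs, while CG31174 across from it had 119 and 108. The transcription factor gene grh, which acts in epidermal cells, had 214 and 212 antisense and 13 and 12 sense read pairs, and the noncoding gene asRNA:CR45270 across its 5′ end had 24 and 33. For these pairs the annotated gene across the way held fewer read pairs than were counted antisense.

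The 25 genes inside an opposite-strand gene had the highest shares, with a median of 96.8%. Their median was 524 antisense against 13 sense read pairs over both libraries, and in 15 of them neither library held more than 10 sense read pairs. Over the 25, the host gene had a median of 12281 sense read pairs, and in 20 it passed 100 in both libraries. In all 25, more than 50% of the unstranded counts were missing from the sense count. The same held in 60 of the 62 genes without overlap, in all 4 with an overlap of bodies only, and in 39 of the 107 with overlapping exons. Where no exons are shared, the unstranded count is close to both stranded counts together, so the rule largely fixes this. Ir51b, an ionotropic receptor gene inside row, had 166 and 168 antisense and 3 and 1 sense read pairs. Gr39a, a gustatory receptor gene inside Mondo, had 146 and 128 antisense and 9 and 6 sense read pairs. Tim17b1, a gene for a variant of a mitochondrial import protein inside mtd, had 251 and 266 antisense and 23 and 16 sense read pairs. At yellow-d2, of the yellow family, 142 and 131 antisense and 5 and 4 sense read pairs lay inside CG13551. Not every gene of this class was so one-sided: CG34431 had 540 and 479 antisense against 468 and 468 sense read pairs, and Cyp310a1, inside MESR3, had 135 and 99 against 93 and 74.

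The longest row of neighbouring genes among the 198 also lies inside a host. CG18234, CG18233, CG18231, CG32201 and CG32199 follow each other on the plus strand of 3L between 18603425 and 18614004. CG18234 had 517 and 505 antisense and 7 and 3 sense read pairs, and CG18233 had 554 and 445 antisense and 2 and 3 sense read pairs. CG18231 had 497 and 371 antisense and 5 and 0 sense read pairs. CG32201 had 464 and 420 antisense and 3 and 2 sense read pairs, and CG32199 had 385 and 424 antisense and 4 and 3 sense read pairs. All 5 were therefore at similar antisense counts, with a nearly empty sense strand in both libraries. The annotation places 2 genes across from the whole row on the minus strand, CG4174 and CG13380, which share 3428 of their 3439 and 3428 exonic bases. Both had 0 counts in every column of both libraries, and a read pair that falls in both is counted for neither, so a count of 0 is no measure of their level. Acer, CngB and CG10307 likewise faced pairs of genes that share exons on 1 strand (lmgA with lmgB, CG42496 with Ppcdc, and Tim10 with CG42497), where the opposite gene was listed at 0, and CG9813 faced CG34309, also at 0. The part of this sharing in the values was not tested.

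Of the 198 genes, 18 lay next to another of them, in 7 rows, and in every row the genes were on the same strand. On the minus strand of 2R, between 23527805 and 23542379, stand bw, ppk3 and Gr59e. The first, bw, had 259 and 224 antisense and 15 and 15 sense read pairs and overlaps mi at its 3′ end. ppk3, of the pickpocket family of sodium channels, had 167 and 156 antisense and 13 and 6 sense read pairs, and Gr59e, a gustatory receptor gene, had 191 and 172 against 12 and 16. Neither of these last genes overlaps an annotated gene on the plus strand. On the plus strand of X, between 2724286 and 2727568, fs(1)Ya, which encodes a nuclear envelope protein of the egg, had 361 and 306 antisense and 85 and 79 sense read pairs. Its neighbour vilya, needed for meiotic recombination in females, had 660 and 551 against 211 and 217. On 2L, Ugt36F1 had 273 and 250 antisense and 5 and 3 sense read pairs and Ugt36D1 had 143 and 134 against 22 and 22. The other rows were Tsf3 with CG15701, CG32182 with CG32181 inside Adgf-A, and CG3708 with CG3706.

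**Figure D4:**
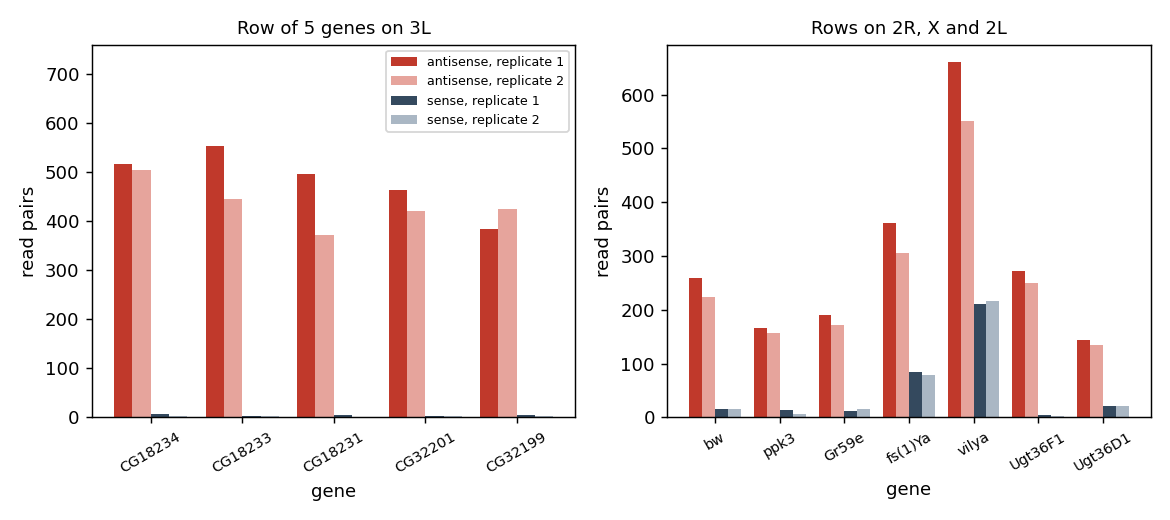
Antisense read pairs (red) and sense read pairs (blue) in each library for genes that stand next to each other on 1 strand; the left panel holds the 5 genes on 3L and the right panel the rows on 2R, X and 2L, with read pairs on the vertical axis. Each gene on the left has between 371 and 554 antisense and at most 7 sense read pairs per library; on the right vilya has the most sense read pairs, 211 and 217.

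In the annotation used here, from which transposable elements were left out, no opposite-strand gene overlaps 62 of the genes. No annotated gene was thus found for the strand of their antisense reads. Their median share was 87.3%, with 330 antisense and 49 sense read pairs over both libraries at the median. In 15 of them, the nearest opposite-strand gene beyond the 3′ end lay within 1000 bases and had at least 100 sense counts in both libraries. The same held in 30.2% of the other genes without overlap. For the nearest opposite-strand gene beyond the 5′ end it held in 16, and in 46.4% of the others. Either was found in 29 of the 62 and in 61.1% of the others. Genes farther away than the nearest were not looked at. The largest antisense count of this class was that of DZIP1 (3R, 24515278 to 24518128, plus strand), a gene of the ciliary transition zone. DZIP1 had 2316 and 2275 antisense read pairs beside 18 and 11 sense read pairs, a share of 99.4%. Its nearest neighbour on the minus strand at the 5′ end, the acetylcholine receptor subunit gene nAChRbeta2, lies 172 bases away and had 2746 and 2529 sense read pairs. Ac3, an adenylyl cyclase gene, had 2227 and 1993 antisense and 396 and 412 sense read pairs, and its nearest such neighbour, Df31, lies 2655 bases away. CG32651 had 1285 and 1112 antisense read pairs, against only 8 and 9 sense read pairs. CG30184 had the highest share of all 198, with 134 and 111 antisense and 1 and 0 sense read pairs. At neither end did its nearest opposite-strand gene lie within 1000 bases with at least 100 sense counts in both libraries. In Zmynd10, by contrast, the ribosomal protein gene RpS12 ends 1 base from the 3′ end. Zmynd10 had 194 and 168 antisense and 20 and 18 sense read pairs, while RpS12 had 29867 and 29362 sense read pairs.

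A known role could be given to 76 of the genes from their names, and these were sorted into 13 groups after their values had been seen. Other genes with a name, GrlHz (64.0%) and pippin (50.1%) among them, were sorted into no group. The groups are therefore not complete. A gene with few sense read pairs reaches the minimum only through antisense ones. Differences in share between the groups are therefore in part fixed by the rule and were not tested. In bulk RNA, fewer cells of a type and less RNA per cell cannot be told apart. The group sorted as basic cell processes held 11 genes, with vari, a gene of cell junctions, among them. All 11 (Cog2, Apc2, Polr3I and Pex10 among them) lay between 50.7% and 73.4%, the highest share being that of vari. Of these 11, 9 overlapped an opposite-strand exon, and all had a deposited level of at least 1 TPM, between 3.74 and 49.3 TPM. Cog2, which encodes a Golgi tethering subunit, had 1821 and 1740 antisense and 1629 and 1556 sense read pairs opposite Hibch. These genes were thus read on both strands.

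Genes known from ciliated cells numbered 8, with shares between 53.4% and 99.4%. Sensory neurons and sperm are the ciliated cells of flies. Besides rempA, DZIP1, Cby and Zmynd10 they were Oseg1 (IFT122), btv (a dynein heavy chain of cilia), tilB and Dnaaf4 (both needed to assemble the dynein arms of motile cilia). Oseg1 had 802 and 770 antisense and 271 and 257 sense read pairs opposite Exo70, and tilB had 199 and 198 against 114 and 88 with 19 exonic bases shared with wap. For btv there were 182 and 158 antisense and 1 and 6 sense read pairs, and for Dnaaf4 151 and 145 against 31 and 17. The deposited level, from sense counts, was 0.0261 ± 0.0269 TPM in btv and 0.272 ± 0.081 TPM in DZIP1 (SD, n = 2 each), against 92.3 TPM in rempA. So rempA, with 10517 and 9933 sense read pairs, stood far apart from btv and DZIP1, which had at most 18 in a library.

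The group sorted as chemoreceptors and sensory channels held 5 genes: Or43b, Gr59e, Ir51b, ppk3 and Gr39a. Of these, 4 were above 92% antisense. Or43b, an odorant receptor gene opposite Cul1, was the exception, with 322 and 306 antisense and 243 and 244 sense read pairs, a share of 56.3%. Its deposited level was 16.1 ± 0.78 TPM (SD, n = 2), although 575 of its exonic bases are shared with Cul1, which had 9111 and 8755 sense read pairs. The unstranded count of Or43b, without the read pairs that fall in both genes, was 197 in each library. Among 185 listed Or, Gr and Ir genes, 13 reached the minimum in the unstranded count. Of these 13, 4 were antisense-read, beside 2.75% of all genes with the minimum. The rule chose them on those counts, so nothing is read from this share.

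Detoxification families gave 7 genes. Of 28 cytochrome P450 genes with the minimum, 4 were antisense-read, of 14 UDP-glycosyltransferase genes 3 were, and of 24 glutathione transferase genes 0 were, beside 2.75% of all genes with the minimum. The families were chosen with the counts known, and nothing is read from these shares. Cyp303a1 had 383 and 304 antisense and 4 and 6 sense read pairs and shares 919 exonic bases with heix. Cyp6t3 had 198 and 211 against 1 and 2, and Cyp4d1 had 316 and 261 against 17 and 8. These 3 P450 genes thus had a nearly empty sense strand, with deposited levels of 0.102, 0.0836 and 0.347 TPM, while Cyp310a1 stood at 4.69 TPM. Odorant-binding protein, cuticle protein, Osiris and accessory gland genes gave no antisense-read gene, but few of them reached the minimum (2 of 51, 1 of 121, 0 of 23 and 4 of 74). Of 85 ribosomal protein genes with the minimum, 0 were antisense-read, which is near the share of 2.75% over all genes.

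Genes known from the nervous system numbered 8, with shares between 62.3% and 99.2%. They were Ac3, Dh44-R2 (a diuretic hormone receptor), amn (a neuropeptide-like gene of memory), Dscam2, ICA69, unc79 (a partner of the sodium leak channel), CngB (a cyclic nucleotide-gated channel) and nrv3 (a beta subunit of the sodium pump). In unc79 there were 201 and 184 antisense and 1 and 2 sense read pairs, and its deposited level of 0.00365 TPM was the lowest of the 198. The gene amn, inside Hers, had 483 and 427 antisense and 56 and 54 sense read pairs. Dh44-R2 had 967 and 847 antisense and 233 and 219 sense read pairs opposite fdl. No gene of this group exceeded 5.26 TPM.

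The 3 genes of the female germ line and meiosis, vilya, fs(1)Ya and stil, all lacked an overlapping gene, with shares between 73.9% and 89.4%. stil had 190 and 147 antisense and 16 and 24 sense read pairs. Of the 11 metabolic enzyme genes, Hpd, of tyrosine breakdown, was the most one-sided, with 534 and 563 antisense and 4 and 8 sense read pairs opposite CtIP. Sodh2, a sorbitol dehydrogenase gene, had 735 and 650 antisense and 49 and 62 sense read pairs. Both transcription factor genes, grh and bab1, were above 94%, and bab1, which patterns ovary, legs and abdomen, had 111 and 130 antisense and 9 and 2 sense read pairs. The cadherin gene Cad96Cb had 365 and 376 against 4 and 7, with Alg9 ending 38 bases away. Secreted proteins and peptidases (7 genes, Corin, yip7 and Spn42Db among them) lay between 53.9% and 94.3%, and membrane transporters (5 genes) between 52.8% and 98.0%. The group sorted as pigment and cuticle (5 genes, with bw and the chitinase gene Cht5) lay between 51.1% and 96.8%. Its lowest share was that of sn, an actin-bundling protein gene and not a pigment or cuticle gene.

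**Figure D5:**
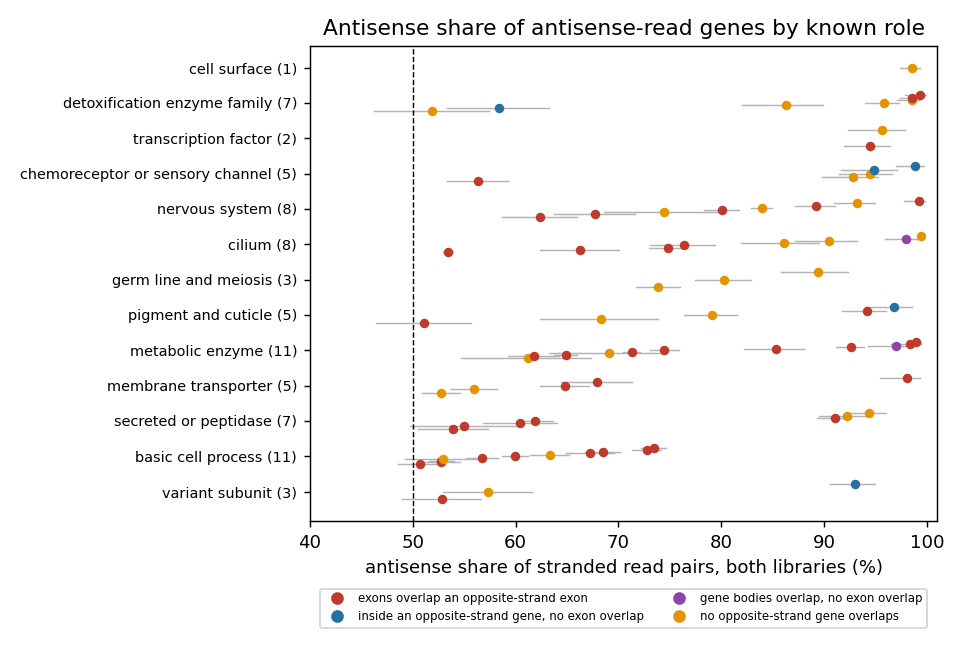
Antisense share of the stranded read pairs (horizontal axis, percent, both libraries) for 76 antisense-read genes in 13 groups by known role (vertical axis, number of genes in brackets); each point is a gene, its colour gives what lies on the opposite strand and its bar is the exact 95% binomial interval, which covers counting error only. The dashed line at 50% is the limit of the rule. The 11 genes sorted as basic cell processes lie between 50.7% and 73.4%, and 4 of the 5 sorted as chemoreceptors and sensory channels lie above 92%. Such differences are in part fixed by the rule, and roles were given after the values were seen.

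The levels of these genes were also set out by sense and by unstranded counts, and since the rule favours low sense counts, a difference between them is in part fixed by it and was not tested. The deposited gene length can exceed the annotated span: Traf-like, with 7 transcripts, lies between 16415046 and 16417585 on X but has a length of 14727. Genes with 1 transcript made up 50.5% of the 198 and 38.4% of the others. TPM is therefore of limited use for comparing genes with each other. In the deposited table, which uses sense counts, 131 of the 198 had a mean level of at least 1 TPM, against 98.1% of all genes with the minimum. With unstranded counts and the same gene lengths, 186 reached it. Their median level was 2.32 TPM by sense counts and 9.88 TPM by unstranded counts, against 43.1 and 43.0 TPM in the other genes. The gap was widest inside host genes, where 8 of 25 reached 1 TPM by sense counts and 24 of 25 by unstranded counts. Among the 107 genes with overlapping exons, 88 reached it by sense counts and 101 by unstranded counts, and among the 62 without overlap, 34 did so by sense counts and 57 by unstranded counts. CG33654, inside CG8301, had a level of 18.8 TPM by sense counts and of 133 TPM by unstranded counts, the highest unstranded level of the 198. The difference did not run one way in every gene: rempA had 92.3 TPM by sense and 94.1 TPM by unstranded counts, while pippin had 27.1 TPM by sense and 5.41 TPM by unstranded counts and CG34231 had 21.1 TPM by sense and 6.75 TPM by unstranded counts.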

How the data were processed

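RNA was measured in 2 libraries of Kc167 cells made with a stranded, poly(A)-selecting kit. The authors aligned read pairs to dm6 with STAR 2.7.1a, named in the submitters' processing notes, and deposited raw counts per gene (unstranded, antisense and sense), along with a table of sense counts, gene lengths and TPM. The TPM the authors deposited is the sense count divided by the deposited gene length, scaled per library. The counts of that table equalled the fourth column of the count files for all 17807 genes of the table (the count files list 17808). Rows that name no gene (21.6% and 21.0% of read pairs) were left out. CPM is the count scaled to 1000000 sense gene counts. Positions came from Ensembl release 115 (BDGP6.54), without its annotated transposable elements. For each gene with overlapping exons, the opposite-strand gene with the most sense counts was taken.

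The genes, families, markers and tests were chosen with earlier results of these data known, and roles after the values were seen. Genes named were those with the largest antisense counts or shares, those next to the limit of the rule, those with a gene name, those in rows, those with the largest difference between the libraries or the largest excess of stranded counts, and the genes opposite them. Family members found by protein comparison were planned and not used here, since no protein sequences were at hand. Of the genes with the minimum, 40 had no symbol or position here, none of them among the 198. Python 3.11.15 with pandas 2.3.3 and scipy 1.17.1 was used, with edgeR 4.0.16 and DESeq2 1.42.0 in R 4.3.3 for scaling only. The tests were tried on simulated counts that held counting error only, so this does not cover any further spread between libraries. Value columns that belong to no sample numbered 0.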

Additional observations from a re-analysis of the deposited data

How the results depend on the processing

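No paired analysis was possible because a single condition was measured. With a minimum of 50 unstranded counts, 309 genes were antisense-read (median share 83.0%, median antisense level 5.63 CPM, 63 inside an opposite-strand gene); with 200, 109 were (72.5%, 15.4 CPM, 86 with a deposited level of at least 1 TPM, 62 with overlapping exons, 18 inside a gene). An antisense count of more than 2 times the sense count left 127 genes (92.6%, 63 at 1 TPM). Opposite-strand reads taken as unstranded minus sense counts left 128 (92.1%, 63 at 1 TPM, 6.48 CPM). Without genes whose stranded counts came to over 1.1 times the unstranded count, 87 were left (89.7%, 43 at 1 TPM, 5.42 CPM). Without genes that overlap an opposite-strand exon, an alternative chosen after seeing the data, 91 were left (91.3%, 43 at 1 TPM, 5.42 CPM). All of these smaller sets lie within the 198. Keeping the noncoding symbols gave a median share of 79.1% and 8.46 CPM. At 5 TPM, 66 genes passed. With a start within 10000 bases of another antisense-read gene as the measure, 29 were neighbours.

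With antisense and sense counts from a single library, and the minimum still asked of both, the number ran between 195 and 197. The median share ran between 77.9% and 78.3%, the median level between 8.32 and 9.45 CPM and the number at 1 TPM between 128 and 130. In replicate 2 alone, the antisense share was below 50% in pippin (48.8% there, 51.3% in the other library), CG34125 (49.1% there, 51.5% in the other library), CG33521 (48.9% there, 54.1% in the other library), CG43191 (48.7% there, 52.8% in the other library) and CG13924 (48.8% there, 53.5% in the other library). In replicate 1 alone, it was below 50% in CG4872 (48.8% there, 53.3% in the other library), CG5157 (49.8% there, 54.7% in the other library), sn (49.6% there, 52.6% in the other library) and Ugt37C2 (47.2% there, 56.4% in the other library). The cause was not tested. Scaling by TMM, DESeq2 size factors or unstranded totals moved the median level by less than the replicate spread, and 0 antisense-read genes differed between the libraries under each alternative. The protein comparison was not run. For 18 genes the exact 95% interval of the share, from counting error only, reached 50% or less.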
